A study of Mus musculus with 24 samples.

Results

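The comparison concerned the expression of all genes in pharyngeal arches 1 and 2 of mouse embryos that carried 1 mutant allele of Kat6a together with 1 mutant allele of Dlx5, against wild type arches. Its members were chosen by label: 4 double heterozygous libraries (Kat6a +/-, Dlx5 +/-) and 4 wild type libraries (Kat6a +/+, Dlx5 +/+), 8 of the 24 RNA-seq libraries of the series. Every embryo was a female C57BL/6 embryo at E10.5, and both alleles are labelled as knockouts without a description of the deleted part. The labels do not say how many embryos went into a library. The other libraries, 4 each of Kat6a heterozygous, Dlx5 heterozygous, Kat6a homozygous and Dlx5 homozygous arches, entered the same model because the embryos came from 2 mouse facilities, given as batches. Double heterozygous replicate 1 came from batch 2 and replicates 2 to 4 from batch 1, whereas all 4 wild type libraries came from batch 2. The study asked, by its title, what loss of either gene or of both does in the developing face.

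The pharyngeal arches are outgrowths of the embryonic head filled with neural crest mesenchyme, which builds the jaws, the palate and the ossicles of the middle ear. Dlx genes encode homeodomain transcription factors that lie in pairs in the genome and give the arches their upper and lower identity, with Dlx5 and Dlx6 acting in the lower jaw part. Kat6a (Moz) encodes a lysine acetyltransferase that modifies histone H3 in a complex with Brpf, Ing and Meaf6 proteins, and Kat6b is its close relative.

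Total counts on genes were 10.9 to 12.2 M in double heterozygous libraries and 11.5 to 28.2 M in wild type libraries, the highest being wild type replicate 1. Levels are given as TMM-scaled CPM, that is, counts scaled to a common library total. The labelled tissue was checked on its markers. Prrx1, a gene of crest mesenchyme, stood at 742 to 917 CPM in double heterozygous and 636 to 855 CPM in wild type libraries. Hoxa2, a gene of the arch 2 crest, averaged 11.97 ± 1.95 CPM in double heterozygous and 11.8 ± 2.86 CPM in wild type libraries (SD, n = 4 each). Neuron markers set libraries apart: the summed CPM of 15 neuron genes was 306, 238, 413 and 432 in double heterozygous replicates 1 to 4, against 135, 594, 154 and 147 in wild type replicates 1 to 4. Replicate 2 of wild type, Kat6a heterozygous, Dlx5 heterozygous and Kat6a homozygous arches was rich in these markers. The library labelled Kat6a heterozygous replicate 3 held 87 counts of Xist, against 11452 or more in each other library, and no counts of 4 Y-linked genes. That library enters the comparison with wild type through the batch term and the shared spread, and without it 59 genes passed the threshold. In bulk tissue, fewer cells of a type and less RNA per cell cannot be told apart.

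Neither targeted gene passed the test. Kat6a had 240.0, 239, 215 and 244 CPM in double heterozygous libraries, against 247, 203, 207 and 148 CPM in wild type libraries. The groups overlapped, and the log2 fold change was 0.26 (SE 0.12, edgeR adjusted p = 0.38). Dlx5 had 68.8, 59.3, 56.4 and 57.0 CPM in double heterozygous libraries, against 64.7, 79.0, 64.6 and 69.1 CPM in wild type libraries. Double heterozygous replicate 1 lay inside the wild type range and the other three lay below it, and the log2 fold change was −0.07 (SE 0.09, edgeR adjusted p = 0.796). Counts over a whole gene do not show the loss of a part of it, so these values do not check the genotypes.

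edgeR tested 14506 genes and called 65 at an adjusted p under 0.05, 0.448% of those tested. Of these, 43 (0.296%) were higher and 22 (0.152%) lower in double heterozygous arches. The median log2 fold change was 0.64 among the higher and −0.44 among the lower genes, 12 rose and 4 fell more than 2-fold, and the median over all genes tested was 0.00707. Those that rose include the collagens Col1a2, Col3a1 and Col6a3 and the transcription factors Runx2, Pax9 and Foxl1. Those that fell include the non-coding RNA Dlx6os1, the retinoic acid enzyme Aldh1a3 and 6 ribosomal protein genes. At an unadjusted p under 0.05 there were 1880 genes, 13% of those tested. DESeq2 called 185 genes, 92 higher and 93 lower, all 65 among them. A fit with no term for batch gave 10 calls by edgeR, 7 of them shared, and within batch 2, where double heterozygous replicate 1 alone met the 4 wild type libraries, there were 9, 3 of them shared. In that fit the single double heterozygous library is assumed to vary like the libraries of the other groups.

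Double heterozygous replicate 1 carried a large part of the comparison. In an unweighted linear model of the same design its weight was 0.5, against 0.167 for each of replicates 2 to 4. All 43 higher and all 22 lower genes had their replicate 1 value beyond every wild type library, and in 41 and 19 of them replicate 1 was the most extreme of the double heterozygous libraries. These genes were chosen on a difference in which replicate 1 weighs most, so both counts follow in part from that choice. The same counts over all genes tested were not made. Over all 4 libraries, 27 of the higher and 18 of the lower genes did not overlap with wild type in CPM, against 409 genes (2.82%) and 478 genes (3.3%) of all tested. With replicate 1 left out, edgeR called 1 gene. The 65 genes then kept their direction, each with an unadjusted p under 0.05, with a median log2 fold change of 0.563 for the higher and −0.462 for the lower genes. The median SE was then 0.159 against 0.121 for the higher and 0.112 against 0.0856 for the lower genes. Within batch 2, the same medians were 0.671 and −0.412, again with an unadjusted p under 0.05 for each gene. Both fits hold libraries on which the 65 genes were chosen, so these directions are not a separate test. The fitted batch effect had the same sign as the group difference in 43 of 43 higher and 21 of 22 lower genes. From CPM means, which are not corrected for batch, the median log2 ratio was 0.466 for the higher and −0.284 for the lower genes. The fitted medians were 0.639 and −0.436. The fit with no term for batch called 10 genes, 7 of them among the 65. All wild type libraries were of batch 2 and most double heterozygous libraries of batch 1. In a linear model of this design, a batch effect of the same sign makes the fitted difference larger than the uncorrected one. The 65 genes were chosen on the fitted difference, so the match of signs follows in part from that choice. Any other reason for the match was not tested.

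**Figure D1:**
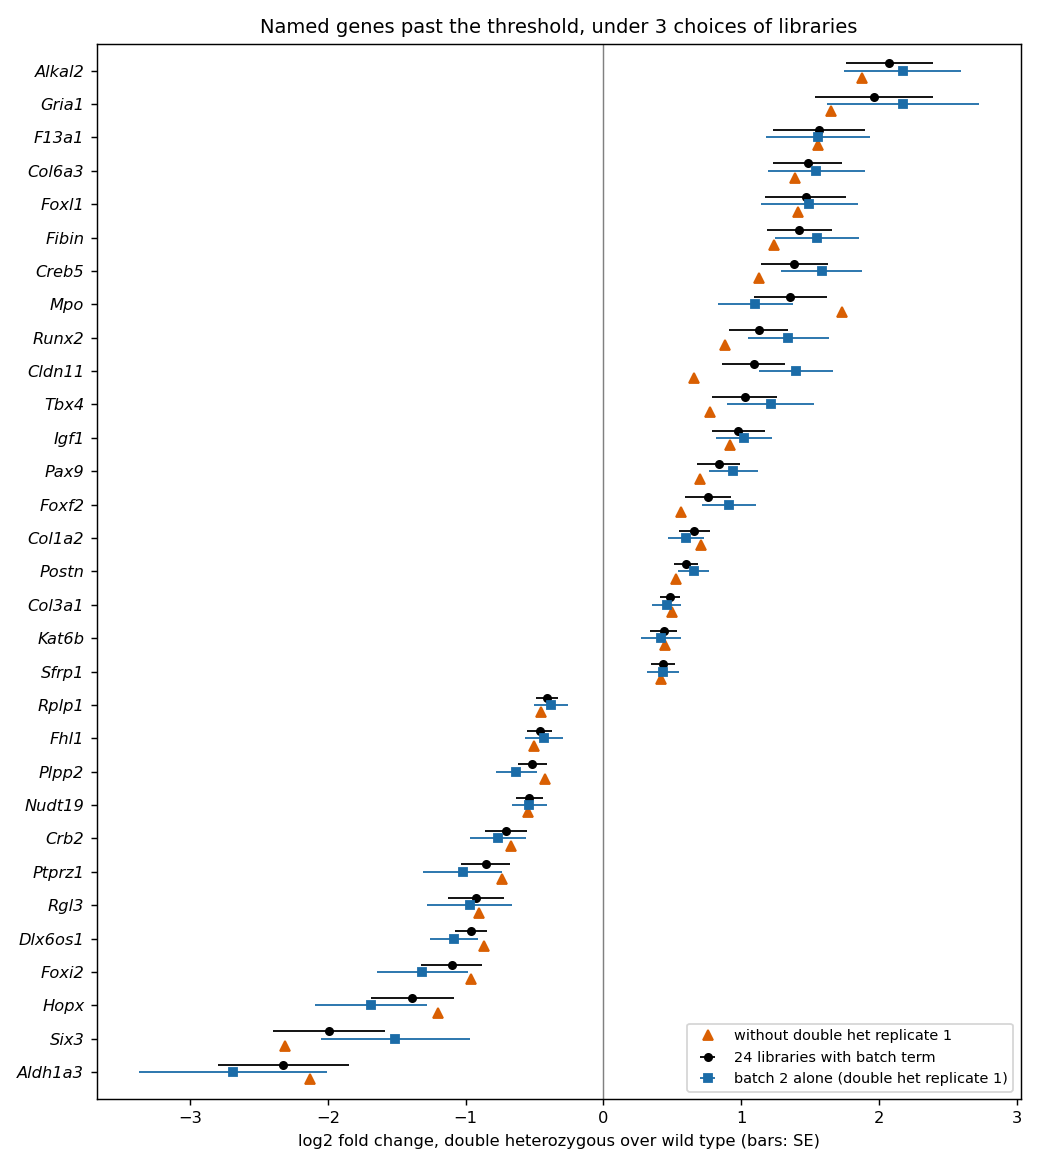
Log2 fold change of double heterozygous over wild type arches for the 31 named genes past the threshold, with standard errors as bars for the first 2 fits. Black points are the fit to all 24 libraries with the batch term, blue squares batch 2 alone and orange triangles the fit without double heterozygous replicate 1. The 3 values of a gene lie on the same side of 0 throughout, and Cldn11 has the widest gap among the higher genes, 1.39 within batch 2 against 0.66 without replicate 1.

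The count also moved with other libraries. Removal of double heterozygous replicate 2 left 24 calls and of replicate 4, 21. Removal of wild type replicates 1, 3 and 4, 1 at a time, gave 169, 103 and 13. Removal of Kat6a heterozygous replicates 1 and 4 gave 105 and 11, and that of Dlx5 heterozygous replicate 4 gave 31. Of the 31 genes past the threshold that are named here, 30 lost the call without double heterozygous replicate 1, 22 without Kat6a heterozygous replicate 4 and 20 without wild type replicate 4. Kat6a heterozygous replicate 4 and Dlx5 heterozygous replicate 4 are the batch 1 libraries of their groups and each carried a weight of −0.25. With a neuron score as covariate 17 genes were called, 16 of them shared. With the 4 neuron-rich libraries of other groups left out, 138 were called, 48 of them shared. The libraries left out were replicate 2 of wild type, Kat6a heterozygous, Dlx5 heterozygous and Kat6a homozygous arches. That removal was chosen after seeing the data. It kept all double heterozygous libraries, at 238 to 432 CPM of summed neuron markers, beside wild type libraries at 135 to 154 CPM. The part of neuron content in the 138 calls was not tested.

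The most stable result among the named genes came from the Dlx family. Dlx6os1, a long non-coding RNA also known as Evf2 and antisense to Dlx6, had 23.2, 24.6, 23.3 and 22.02 CPM in double heterozygous libraries, against 54.5, 43.2, 54.0 and 43.7 CPM in wild type libraries. The groups lay far apart, and the 4 double heterozygous libraries from both batches stayed within 3 CPM of each other. The level was 23.3 ± 1.05 CPM in double heterozygous and 48.8 ± 6.21 CPM in wild type arches (SD, n = 4 each), a log2 fold change of −0.96 (SE 0.11, edgeR adjusted p = 0.000107). Dlx6os1 alone among the named genes passed the threshold in all 34 alternative fits, with log2 fold changes of −1.09 to −0.83 and adjusted p-values up to 0.0429. Its RefSeq gene lies at chr6:6820543-6871627 of GRCm38 and spans Dlx6 at chr6:6863334-6867970, with Dlx5 at chr6:6877801-6882068 beyond its start. The sources used here do not say whether reads were counted by strand. Reads from Dlx6os1 and from Dlx6 therefore cannot be told apart where the genes overlap.

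The other 7 members tested did not pass. Dlx3, a family member of the distal arch and of the ectoderm, had 75.6, 74.5, 65.7 and 77.3 CPM in double heterozygous libraries, against 94.2, 109, 101 and 98.4 CPM in wild type libraries. Its partner Dlx4 had 2.74, 3.39, 3.30 and 3.23 CPM in double heterozygous libraries, against 4.91, 4.99, 4.76 and 3.95 CPM in wild type libraries. Neither gene overlapped between groups, yet their log2 fold changes of −0.38 (SE 0.10, edgeR adjusted p = 0.0777) and −0.61 (SE 0.18, edgeR adjusted p = 0.129) missed the threshold. Dlx3 passed it with DESeq2 (adjusted p = 0.0233), without the batch term (0.0172), and without Dlx5 heterozygous replicate 2 (0.0425), Kat6a heterozygous replicate 1 (0.0426) or wild type replicate 1 (0.0451). Dlx1as, the antisense RNA of Dlx1, had 16.5, 13.3, 13.3 and 13 CPM in double heterozygous libraries, against 17.2, 17.8, 20.7 and 24.5 CPM in wild type libraries. The Dlx1as gene overlaps Dlx1, so without a known strand setting their reads cannot be told apart there. The Dlx1as values did not overlap between the groups either, but the batch-adjusted log2 fold change was −0.24 (SE 0.21, edgeR adjusted p = 0.66). Dlx1, Dlx2 and Dlx6 overlapped between groups, with log2 fold changes of −0.02, −0.17 and 0.06, and the signs of Dlx1 and Dlx6 turned in other fits. Of the 8 members, 1 was called lower (0.152% of all genes) and 7 had a negative value, with a median of −0.21 beside 0.00707 over all genes.

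**Figure D2:**
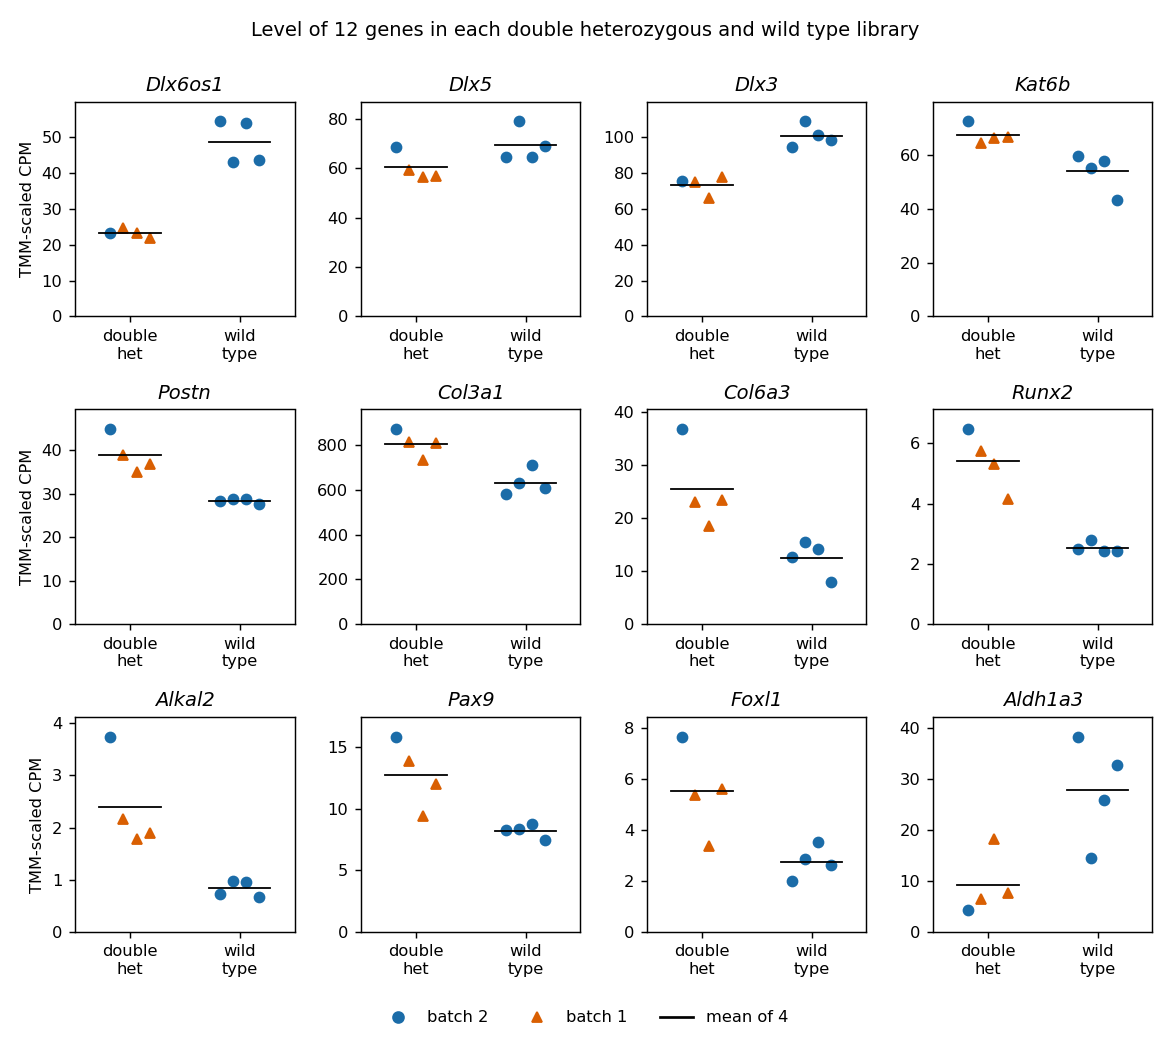
TMM-scaled CPM of 12 genes in each double heterozygous library (left) and each wild type library (right) on linear axes from 0, with batch 2 libraries as circles, batch 1 libraries as triangles and the mean of 4 as a line. Dlx6os1 sits at 22.02 to 24.6 CPM in double heterozygous libraries, below all wild type libraries, and for Col6a3, Alkal2 and Pax9 the batch 2 circle is the highest double heterozygous value. Aldh1a3 overlaps through double heterozygous replicate 3 and wild type replicate 2.

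Many homeodomain proteins, those of the Dlx family among them, bind sequences with the core TAATTA. RefSeq promoter windows of GRCm38.p6, 250 bases before to 50 after a start site, were searched for these letters, which read the same on both strands. Of the genes tested, 11035 had a window and 342 (3.1%) held the motif, beside 1 of 34 called higher (2.94%) and 1 of 18 called lower (5.56%), shares near that of all genes or resting on 1 gene. The called genes with the motif were Alkal2 and Dlx6os1, which held it in both windows shown. The windows are shown because they are the promoters with the motif among the genes called, with TAATTA in capitals. A match of letters is a description and not a site of binding. Alkal2 lies on the plus strand at chr12:30884074-30884373, and the Dlx6os1 windows lie on the minus strand at chr6:6861634-6861933 and chr6:6869484-6869783.
Alkal2 window at chr12:30884074-30884373: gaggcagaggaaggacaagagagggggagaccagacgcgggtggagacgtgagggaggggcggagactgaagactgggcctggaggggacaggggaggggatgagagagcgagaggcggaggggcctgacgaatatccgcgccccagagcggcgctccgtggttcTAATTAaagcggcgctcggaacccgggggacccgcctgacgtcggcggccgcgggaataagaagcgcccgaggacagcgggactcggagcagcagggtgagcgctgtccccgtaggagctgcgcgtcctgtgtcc
Dlx6os1 window at chr6:6861634-6861933: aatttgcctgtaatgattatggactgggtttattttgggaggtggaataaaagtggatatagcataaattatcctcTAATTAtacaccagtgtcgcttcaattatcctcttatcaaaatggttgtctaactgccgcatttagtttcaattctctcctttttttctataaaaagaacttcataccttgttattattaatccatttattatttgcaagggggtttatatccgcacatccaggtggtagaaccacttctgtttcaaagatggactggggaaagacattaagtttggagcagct
Dlx6os1 window at chr6:6869484-6869783: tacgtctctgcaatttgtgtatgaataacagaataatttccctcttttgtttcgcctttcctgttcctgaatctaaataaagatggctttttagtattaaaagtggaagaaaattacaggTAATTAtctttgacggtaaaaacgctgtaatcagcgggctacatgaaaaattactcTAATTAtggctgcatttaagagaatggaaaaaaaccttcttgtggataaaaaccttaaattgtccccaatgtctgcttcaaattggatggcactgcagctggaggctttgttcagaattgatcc

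The genes of the KAT6 complexes differed little between the groups. Kat6b had 72.4, 64.5, 66.1 and 66.7 CPM in double heterozygous libraries, against 59.5, 55.1, 57.6 and 43.3 CPM in wild type libraries. The groups did not overlap, wild type replicate 4 was the lowest library, and the rise of 0.44 (SE 0.10, edgeR adjusted p = 0.044) was close to the threshold. The call was lost in 22 of 34 alternative fits, 16 of them with 1 library left out. It stood at 0.45 (adjusted p = 0.419) without double heterozygous replicate 1, 0.42 (0.112) without Kat6a heterozygous replicate 4 and 0.35 (0.0922) without wild type replicate 4, and at adjusted p-values of 0.0526 to 0.0976 without the other 13. Those were double heterozygous replicates 2 to 4, Kat6a heterozygous replicates 2 and 3, Dlx5 heterozygous replicates 3 and 4, wild type replicate 2, Kat6a homozygous replicates 1 to 3 and Dlx5 homozygous replicates 1 and 2. The other 10 genes of the list, which includes the scaffold genes Brpf1, Brd1 and Brpf3, the reader genes Ing4 and Ing5, and Meaf6, did not pass, and the median of the 11 was 0.06.

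Of the matrix genes, 3 collagens and 2 others rose. Among 26 collagen genes tested, 3 rose (0.296% of all genes), none fell and 21 had a positive value, with a median of 0.127. Col3a1, the chain of type III collagen (chr1:45311538-45349706), had 871, 811, 733 and 809 CPM in double heterozygous libraries, against 580.3, 629, 709 and 608 CPM in wild type libraries. All 4 double heterozygous libraries lay above wild type, though replicate 3 did so narrowly, and the log2 fold change was 0.48 (SE 0.07, edgeR adjusted p = 0.00261). Col1a2, a chain of type I collagen, had 337, 285, 239 and 274 CPM in double heterozygous libraries, against 215, 248, 242 and 181 CPM in wild type libraries. Replicate 3 overlapped with wild type, and the log2 fold change was 0.66 (SE 0.11, edgeR adjusted p = 0.00851). Col6a3, a chain of the microfibrillar type VI collagen, had 36.9, 23.0, 18.5 and 23.5 CPM in double heterozygous libraries, against 12.6, 15.5, 14.2 and 7.91 CPM in wild type libraries. Its log2 fold change was 1.48 (SE 0.25, edgeR adjusted p = 0.0153), with replicate 1 the highest by far and wild type replicate 4 the lowest.

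Of 25 other matrix genes tested, 2 rose (0.296% of all genes), none fell and 20 had a positive value, with a median of 0.211. Postn encodes periostin, a secreted protein that binds collagen. It had 44.9, 38.9, 34.96 and 36.9 CPM in double heterozygous libraries, against 28.4, 28.8, 28.9 and 27.6 CPM in wild type libraries. The wild type libraries were within 2 CPM of each other and all double heterozygous libraries lay above them, with a log2 fold change of 0.60 (SE 0.08, edgeR adjusted p = 0.00125). Within batch 2, where replicate 1 is the only double heterozygous library and the other groups supply the spread, Postn stood at 0.65 (edgeR adjusted p = 0.0452). Fibin, a secreted protein gene, had 5.48, 3.39, 2.37 and 2.65 CPM in double heterozygous libraries, against 1.51, 2.37, 1.99 and 1.68 CPM in wild type libraries, and its log2 fold change was 1.42 (SE 0.24, edgeR adjusted p = 0.00749). The highest wild type value of Fibin equalled the lowest double heterozygous one at the precision given. Without double heterozygous replicate 1 the adjusted p was 0.216 for Col3a1, Col1a2 and Postn, and 0.369 for Col6a3 and Fibin, with log2 fold changes of 0.50, 0.71, 0.53, 1.39 and 1.24. No other single library ended these 5 calls. Summed crest mesenchyme markers moved little between the groups, at 1845 to 2264 CPM in double heterozygous and 1722 to 2157 CPM in wild type libraries, with none of the 13 markers called by edgeR or DESeq2 and 2 at an unadjusted p under 0.05 (13% of all genes).

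Few genes of bone and cartilage formation passed the test. Of 12 tested, 2 rose (0.296% of all genes) and none fell, with a median of 0.09. Runx2, the master regulator of osteoblasts, had 6.48, 5.73, 5.33 and 4.14 CPM in double heterozygous libraries, against 2.51, 2.78, 2.42 and 2.44 CPM in wild type libraries. All double heterozygous libraries stood well above a narrow wild type range, and the log2 fold change was 1.13 (SE 0.22, edgeR adjusted p = 0.0202). Creb5, a transcription factor gene of the bZIP class, had 6.39, 4.08, 2.29 and 3.73 CPM in double heterozygous libraries, against 2.08, 1.96, 2.59 and 1.85 CPM in wild type libraries. Replicate 3 overlapped with wild type, and the log2 fold change was 1.39 (SE 0.25, edgeR adjusted p = 0.0118). The cartilage regulators Sox9, Sox5 and Sox6 stood at 0.06, 0.11 and −0.09, Col2a1 at −0.06 and the osteoblast factor Sp7 at 0.56 on the log2 scale, without passing the test. Igf1, a growth factor, had 103, 81.2, 63.7 and 79.3 CPM in double heterozygous libraries, against 52.2, 55.7, 57.9 and 35.7 CPM in wild type libraries, a rise of 0.98 (SE 0.19, edgeR adjusted p = 0.0289). Without double heterozygous replicate 1, Runx2 stood at 0.88 (adjusted p = 0.454), Creb5 at 1.13 (0.419) and Igf1 at 0.92 (0.419). Runx2 also missed the threshold without wild type replicate 4 (0.0562) or Kat6a heterozygous replicate 4 (0.0598), and Igf1 without those or without Dlx5 heterozygous replicate 4 or double heterozygous replicates 2 or 4 (0.0526 to 0.0756).

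In the palate and tooth list, 2 of 16 genes rose (0.296% of all genes) and none fell, with a median of 0.262. Beside Runx2 this was Pax9, a paired-box factor needed for palate and teeth, which had 15.9, 13.9, 9.40 and 12 CPM in double heterozygous libraries, against 8.28, 8.34, 8.73 and 7.49 CPM in wild type libraries. The groups did not overlap, and the rise was 0.84 (SE 0.16, edgeR adjusted p = 0.0202). Pax9 marks pharyngeal endoderm as well, a list in which it was the 1 gene called among 8 (0.296% of all genes were called higher). In that list 6 had negative values and the median was −0.503. At an unadjusted p under 0.05 there were 6 of the 8, 1 higher and 5 lower, beside 13% of all genes. Summed endoderm markers were 53.6 to 59.0 CPM in double heterozygous and 51.4 to 63.9 CPM in wild type libraries. Pax9 stood at 0.70 without double heterozygous replicate 1 (adjusted p = 0.433), and it missed the threshold without wild type replicate 4 (0.0562) or Kat6a heterozygous replicate 4 (0.0708).

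Among forkhead genes, 2 of 15 tested were called higher (0.296% of all genes) and 1 lower (0.152% of all genes), with a median of 0.29. Of the 15, 10 had a positive value, and 8 had an unadjusted p under 0.05 (13% of all genes), 7 higher and 1 lower. Foxl1, a mesenchymal forkhead factor, had 7.67, 5.39, 3.39 and 5.63 CPM in double heterozygous libraries, against 2.01, 2.86, 3.55 and 2.61 CPM in wild type libraries, a rise of 1.47 (SE 0.29, edgeR adjusted p = 0.0221). Foxf2, which takes part in palate formation, had 39.7, 29.2, 23.0 and 30.6 CPM in double heterozygous libraries, against 16.6, 27.3, 21.4 and 19.4 CPM in wild type libraries, a rise of 0.76 (SE 0.17, edgeR adjusted p = 0.0406). In both genes replicate 1 was the highest library and replicate 3 overlapped with wild type. Foxi2, a factor of cranial ectoderm, had 5.02, 7.38, 11 and 8.61 CPM in double heterozygous libraries, against 15.1, 11.3, 10.8 and 12.1 CPM in wild type libraries, a fall of 1.10 on the log2 scale (SE 0.22, edgeR adjusted p = 0.0221), and here too replicate 1 was the most extreme. Without double heterozygous replicate 1, the log2 fold changes were 1.41 for Foxl1 (adjusted p = 0.419), 0.56 for Foxf2 (0.618) and −0.96 for Foxi2 (0.419). All of these were also lost without double heterozygous replicates 2 or 4, wild type replicate 4 or Kat6a heterozygous replicate 4, at adjusted p-values of 0.0502 to 0.114, and Foxf2 also, at 0.0507 to 0.0572, without wild type replicates 1 or 3, Kat6a heterozygous replicates 2 or 3, Dlx5 heterozygous replicates 2 or 3, Dlx5 homozygous replicate 1 or Kat6a homozygous replicate 3.

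Foxf2 and Foxl1 are known targets of hedgehog signalling. They were the 2 genes called among 14 of that pathway, beside 0.296% of all genes called higher. Of the 14, 12 had a positive value, with a median of 0.222. At an unadjusted p under 0.05 (13% of all genes) there were 7, of which 6 were higher and 1 lower. The ligand Shh stood at −0.38, the receptor Ptch1 at 0.33, and the transcription factors Gli1, Gli2 and Gli3 at 0.31, 0.13 and 0.18 on the log2 scale, none past the test. Among 18 Wnt genes, 1 rose, beside 0.296% of all genes. Sfrp1, a secreted antagonist, had 166, 154, 132 and 144 CPM in double heterozygous libraries, against 128, 115, 129.7 and 119 CPM in wild type libraries. These groups were separated by a narrow gap, with a log2 fold change of 0.43 (SE 0.09, edgeR adjusted p = 0.0203), and 0.42 (adjusted p = 0.419) without double heterozygous replicate 1. The call was also lost without double heterozygous replicate 2, wild type replicate 4, Dlx5 heterozygous replicate 4 or Kat6a heterozygous replicate 4 (0.0546 to 0.0652).

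The lists of mandibular factors, maxillary and dorsal arch genes, anterior Hox, endothelin, bone morphogenetic protein and fibroblast growth factor genes held no gene called by edgeR or DESeq2. At an unadjusted p under 0.05, beside 13% of all genes tested, there were 6 of 17 mandibular, 0 of 15 maxillary, 0 of 4 Hox, 2 of 12 endothelin, 2 of 17 bone morphogenetic protein and 2 of 17 fibroblast growth factor genes. Edn1, the endothelin ligand that sets lower jaw identity, had 1.37, 1.56, 2.20 and 1.49 CPM in double heterozygous libraries, against 3.62, 3.03, 2.25 and 2.52 CPM in wild type libraries. The groups did not overlap and the log2 fold change was −1.15 (SE 0.31, edgeR adjusted p = 0.0869), which passed only without Dlx5 homozygous replicate 3 (adjusted p = 0.0493). Its receptor gene Ednra had 69.4, 63.7, 47.9 and 64.7 CPM in double heterozygous libraries, against 49.8, 51.9, 57.2 and 44.2 CPM in wild type libraries, with a log2 fold change of 0.37 (SE 0.12, edgeR adjusted p = 0.145; 0.0479 without double heterozygous replicate 3). Msx2, a homeobox gene of the distal mandible that responds to bone morphogenetic proteins, had 61.7, 55.2, 60.5 and 58.4 CPM in double heterozygous libraries, against 64.5, 76.5, 70.0 and 85.2 CPM in wild type libraries. Its values did not overlap, with a log2 fold change of −0.35 (SE 0.10, edgeR adjusted p = 0.11; 0.0445 without wild type replicate 1). Hand2, a target of endothelin signalling, averaged 99.8 ± 14.3 CPM in double heterozygous and 109 ± 17.9 CPM in wild type arches (SD, n = 4 each), a log2 fold change of −0.11 (edgeR adjusted p = 0.752).

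**Figure D3:**
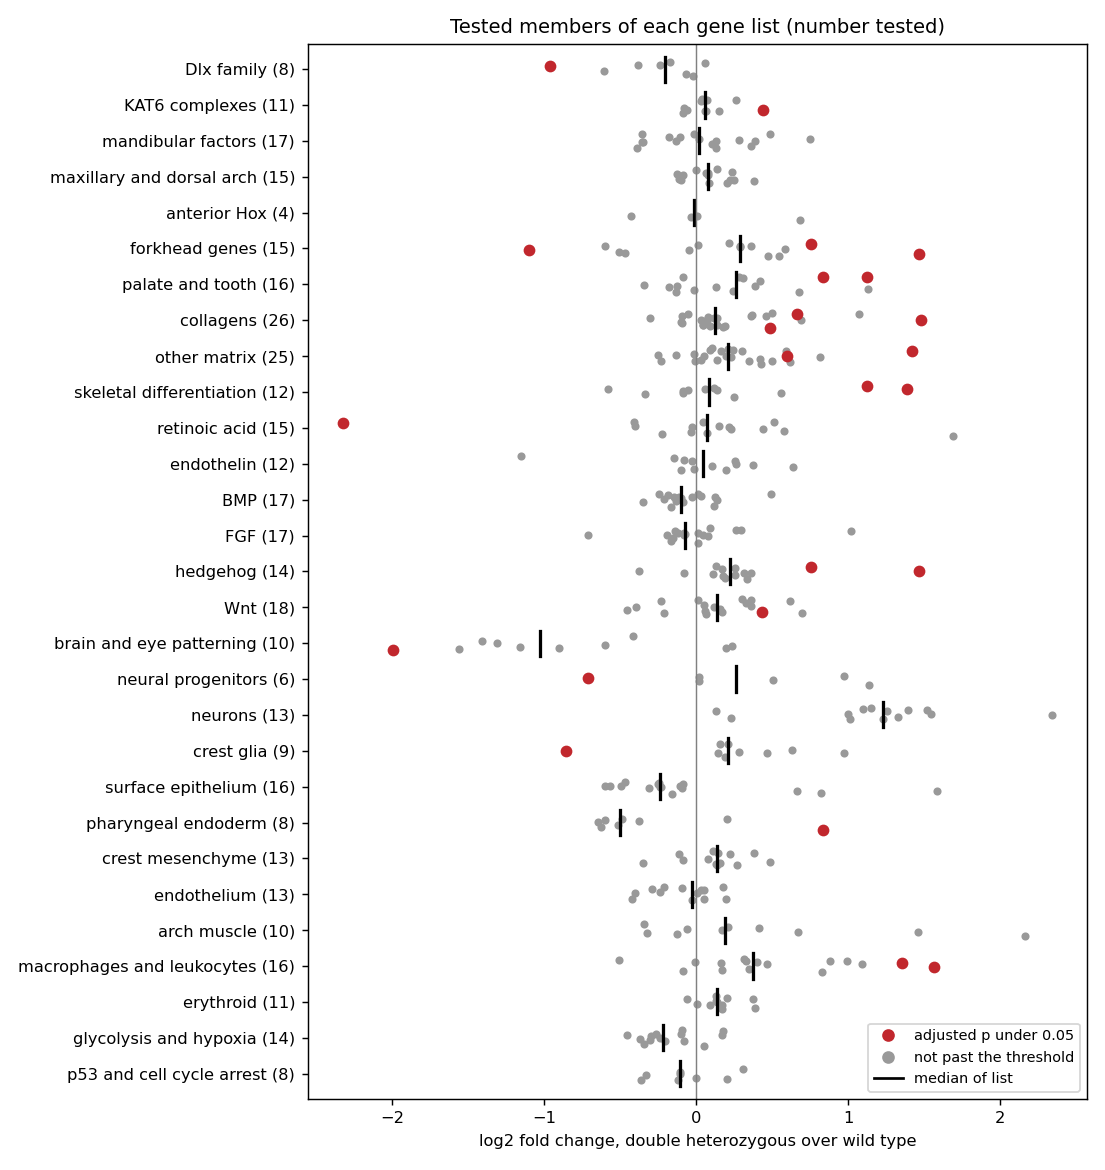
Log2 fold change of double heterozygous over wild type arches for each tested member of 29 gene lists, 1 point per gene, with called genes in red, the others in grey and the median of the list as a black bar. The number of genes tested stands beside each list. Most medians lie near 0, and those of neurons (1.23) and of brain and eye patterning genes (−1.03) lie farthest from it.

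The largest fall among genes of at least 1 CPM was that of Aldh1a3, an enzyme that makes retinoic acid in the facial ectoderm and the eye. It had 4.38, 6.43, 18.2 and 7.62 CPM in double heterozygous libraries, against 38.3, 14.5, 25.9 and 32.8 CPM in wild type libraries. The spread within both groups was wide, double heterozygous replicate 3 lay above wild type replicate 2, and the log2 fold change was −2.32 (SE 0.48, edgeR adjusted p = 0.039). The call was lost without double heterozygous replicate 1 (−2.13, adjusted p = 0.419) and, at 0.0522 to 0.106, without double heterozygous replicates 2 or 4, wild type replicate 4, Kat6a heterozygous replicate 4, Dlx5 heterozygous replicates 2 or 4, or Kat6a homozygous replicates 2 or 3. It was the 1 gene called among 15 retinoic acid genes, beside 0.152% of all genes called lower, and their median was 0.07. Aldh1a2, the enzyme of the same step in mesoderm, stood at 1.69 with an edgeR adjusted p = 0.062. Six3, a homeobox gene of forebrain and eye, had 0.821, 0.608, 1.78 and 0.414 CPM in double heterozygous libraries, against 2.80, 1.8, 1.99 and 2.69 CPM in wild type libraries. The gap between the groups was very small at this low level, and the fall was 1.99 on the log2 scale (SE 0.41, edgeR adjusted p = 0.0234). Six3 was lost without double heterozygous replicate 1 (0.216) and, at 0.0502 to 0.119, without double heterozygous replicates 2 or 4, wild type replicate 4, Kat6a heterozygous replicate 4 or Dlx5 heterozygous replicate 4. In the list of brain and eye patterning genes Six3 was the 1 called of 10, beside 0.152% of all genes called lower. Of the 10, 8 had negative values, 5 had an unadjusted p under 0.05 (13% of all genes), all negative, and the median was −1.03. Their summed level was 46.3 to 52.9 CPM in double heterozygous and 49.6 to 60.2 CPM in wild type libraries, with 3 to 4 of 14 genes at 0 in double heterozygous and up to 3 in wild type libraries. The part of these summed levels in the fall was not tested.

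Other falls were smaller. Hopx, an atypical homeodomain protein without DNA binding, had 1.46, 2.08, 3.81 and 1.99 CPM in double heterozygous libraries, against 5.56, 4.34, 4.15 and 4.63 CPM in wild type libraries, a fall of 1.39 on the log2 scale (SE 0.30, edgeR adjusted p = 0.0311). Ptprz1 encodes a receptor-type tyrosine phosphatase found in neural progenitors and glia. It had 7.30, 9.12, 9.82 and 10.51 CPM in double heterozygous libraries, against 18.2, 13.1, 15.7 and 11.6 CPM in wild type libraries, a fall of 0.86 on the log2 scale (SE 0.18, edgeR adjusted p = 0.0265). Both genes were without overlap between the groups. Ptprz1 fell in a list of crest glia genes of which the other 8 tested had positive values, with summed markers of 206 to 249 CPM in double heterozygous and 154 to 223 CPM in wild type libraries. Crb2, a polarity protein gene of the neural tube, had 10.49, 17.7, 17.2 and 13.4 CPM in double heterozygous libraries, against 21.0, 16.2, 15.5 and 17.9 CPM in wild type libraries. Crb2 overlapped in 2 double heterozygous libraries, and its fall was 0.71 on the log2 scale (SE 0.15, edgeR adjusted p = 0.0296). Rgl3, Nudt19, Plpp2 and Fhl1 fell by 0.93, 0.54, 0.52 and 0.46 on the log2 scale (edgeR adjusted p 0.0169 to 0.0374), each without overlap between the groups in CPM. Of these, Fhl1 encodes a LIM domain protein and Plpp2 a lipid phosphatase. Without double heterozygous replicate 1 all of these calls were lost, with log2 fold changes of −1.20 for Hopx, −0.73 for Ptprz1, −0.67 for Crb2, −0.90 for Rgl3, −0.55 for Nudt19, −0.43 for Plpp2 and −0.51 for Fhl1 (adjusted p 0.306 to 0.442). Apart from Plpp2, they were lost without Kat6a heterozygous replicate 4 too (0.0652 to 0.0978). Removal of wild type replicate 4 ended all of them but Ptprz1 and Nudt19, and that of double heterozygous replicate 4 the same ones. Removal of double heterozygous replicate 2 ended Hopx, Ptprz1 and Rgl3, that of Dlx5 heterozygous replicate 4 Hopx, Ptprz1, Rgl3 and Plpp2, and that of wild type replicate 1 Rgl3.

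Genes of the cytosolic ribosome lay slightly lower in double heterozygous arches. This list was added after its values were seen. Of 84 tested, 6 were called lower (among them Rplp1, Rpsa, Rps3a1, Rpl7a and Rpl8), beside 0.152% of all genes, and none higher. Of the 84, 75 had a negative value and the median was −0.17. Against the same wild type libraries the median of these genes was −0.20 in Kat6a heterozygous and −0.13 in Dlx5 heterozygous arches. Rplp1, of the ribosomal stalk, had 557, 590.4, 620.4 and 608 CPM in double heterozygous libraries, against 661, 722, 688 and 822 CPM in wild type libraries, with a log2 fold change of −0.41 (SE 0.08, edgeR adjusted p = 0.0202). The summed level of the 84 genes was 12313 to 13963 CPM in double heterozygous libraries, against 13527 to 16635 CPM in wild type libraries, so that the sums overlapped and wild type replicate 4 was the highest. Without wild type replicate 4 Rplp1 stood at −0.34 (adjusted p = 0.0598), without Kat6a heterozygous replicate 4 at −0.39 (adjusted p = 0.0756) and without double heterozygous replicate 1 at −0.45 (adjusted p = 0.306). In CPM, 15 of the 84 genes (17.9%) lay lower without overlap, beside 3.3% of all genes. Ribosomal protein genes have many near-identical processed copies, so their counts depend on how such reads were assigned. The called lower genes had a median gene length of 1891.5 bases in the deposited table and the called higher genes one of 3761 bases, against 2846.5 bases over all genes tested, and the part of length or RNA quality was not tested.

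The 3 called genes with the largest rise had low levels. Alkal2, a ligand of the ALK and LTK receptors of the neural crest (chr12:30884324-30893856), had 3.74, 2.17, 1.78 and 1.90 CPM in double heterozygous libraries, against 0.717, 0.982, 0.951 and 0.673 CPM in wild type libraries. Every double heterozygous library stood above every wild type library, with a rise of 2.07 (SE 0.32, edgeR adjusted p = 0.00261), and 1.88 (adjusted p = 0.31) without replicate 1. Gria1, a glutamate receptor subunit, had 5.38, 2.26, 1.35 and 2.98 CPM in double heterozygous libraries, against 1.08, 1.23, 1.47 and 1.01 CPM in wild type libraries. The groups overlapped through replicate 3, and the rise was 1.96 (SE 0.43, edgeR adjusted p = 0.0374) and was lost without replicate 1 (1.65, adjusted p = 0.603). It was also lost, at 0.0521 to 0.0976, without double heterozygous replicates 2 or 4, wild type replicates 1, 2 or 4, Kat6a heterozygous replicate 4 or Dlx5 heterozygous replicate 4. Myh3, the embryonic myosin heavy chain, is below the level set for naming and was picked after its values were seen. It had 1.10, 1.30, 0.423 and 0.579 CPM in double heterozygous libraries, against 0.108, 0.245, 0.0865 and 0.336 CPM in wild type libraries, a rise of 2.91 (SE 0.67, edgeR adjusted p = 0.0468). In the list of 10 tested arch muscle genes none was called by edgeR or DESeq2 and 3 had an unadjusted p under 0.05 (13% of all genes). Myog, the myogenic factor with the lowest p of them, had 1.73, 0.869, 0.762 and 0.745 CPM in double heterozygous libraries, against 0.143, 0.573, 0.692 and 0.252 CPM in wild type libraries (log2 fold change 2.16, SE 0.58, edgeR adjusted p = 0.0887; 0.0438 without Kat6a heterozygous replicate 1). Summed muscle markers were 84.5 to 101 CPM in double heterozygous and 86.6 to 99.7 CPM in wild type libraries.

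For Cldn11 and Tbx4 the groups overlapped in 2 or more double heterozygous libraries. Cldn11, a tight junction gene, had 10.04, 4.43, 3.81 and 4.72 CPM in double heterozygous libraries, against 3.94, 3.68, 4.84 and 2.69 CPM in wild type libraries. Only replicate 1 lay above wild type, and the log2 fold change of 1.09 (SE 0.23, edgeR adjusted p = 0.0265) became 0.66 (adjusted p = 0.674) without it. It was also lost, at 0.0502 to 0.0756, without double heterozygous replicates 2 or 4, wild type replicates 2 or 4, or Kat6a heterozygous replicate 4. Tbx4, a T-box factor of limb and lung, had 6.48, 4.69, 3.47 and 3.73 CPM in double heterozygous libraries, against 2.37, 3.11, 3.98 and 1.77 CPM in wild type libraries. Its log2 fold change of 1.02 (SE 0.23, edgeR adjusted p = 0.0456) missed the threshold in 24 of 34 alternative fits, with 0.77 (adjusted p = 0.631) without replicate 1. The call lasted only without double heterozygous replicate 3, wild type replicate 3, Kat6a heterozygous replicates 1 or 3, Dlx5 heterozygous replicate 1 or Dlx5 homozygous replicate 3 among fits with 1 library left out.

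Among blood and immune genes, 2 of 16 macrophage and leukocyte markers rose (0.296% of all genes), none fell and the median was 0.374. Of the 16, 13 had a positive value, and 6 had an unadjusted p under 0.05 (13% of all genes), all 6 of them higher. F13a1, a coagulation factor subunit made by embryonic macrophages, had 9.49, 8.95, 4.06 and 4.39 CPM in double heterozygous libraries, against 2.94, 2.70, 5.10 and 2.19 CPM in wild type libraries, a rise of 1.57 (SE 0.34, edgeR adjusted p = 0.0334). Mpo, a peroxidase of myeloid cells, had 6.84, 2.87, 4.23 and 3.48 CPM in double heterozygous libraries, against 3.30, 3.27, 2.42 and 3.62 CPM in wild type libraries, a rise of 1.36 (SE 0.27, edgeR adjusted p = 0.0202). Both genes overlapped between the groups. Mpo averaged 4.36 ± 1.75 CPM in double heterozygous and 3.15 ± 0.512 CPM in wild type arches (SD, n = 4 each), a smaller ratio than the fold change, which is corrected for batch whereas CPM is not. Without double heterozygous replicate 1, F13a1 stood at 1.56 (adjusted p = 0.441) and Mpo at 1.73 (adjusted p = 0.216), and both were lost without Kat6a heterozygous replicate 4 (0.0915 and 0.0756). F13a1 was also lost, at 0.05 to 0.0976, without double heterozygous replicates 2 or 4, wild type replicates 2 or 4 or Dlx5 heterozygous replicate 4. Summed markers of the list were 60.5 to 76.9 CPM in double heterozygous and 50.8 to 65.6 CPM in wild type libraries, and their part in these calls was not tested. The macrophage receptor genes Csf1r and Cx3cr1 stood at 0.31 and −0.09 on the log2 scale, Cx3cr1 being among the 3 markers with a negative value.

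No neuron gene was called, by edgeR or DESeq2, although all 13 tested had positive values with a median of 1.23, and none had an unadjusted p under 0.05. Their summed level in double heterozygous libraries lay between the low wild type replicates 1, 3 and 4 and the high wild type replicate 2. Surface epithelium (16 genes), endothelium (13), erythroid (11), glycolysis and hypoxia (14) and p53 (8) lists also held no call by either tool. At an unadjusted p under 0.05, which 13% of all genes had, they held 6, 5, 0, 6 and 3 genes, and their medians were −0.236, −0.03, 0.135, −0.221 and −0.11. Erythroid markers summed to 2178 to 3399 CPM in double heterozygous and 2033 to 5092 CPM in wild type libraries.

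**Figure D4:**
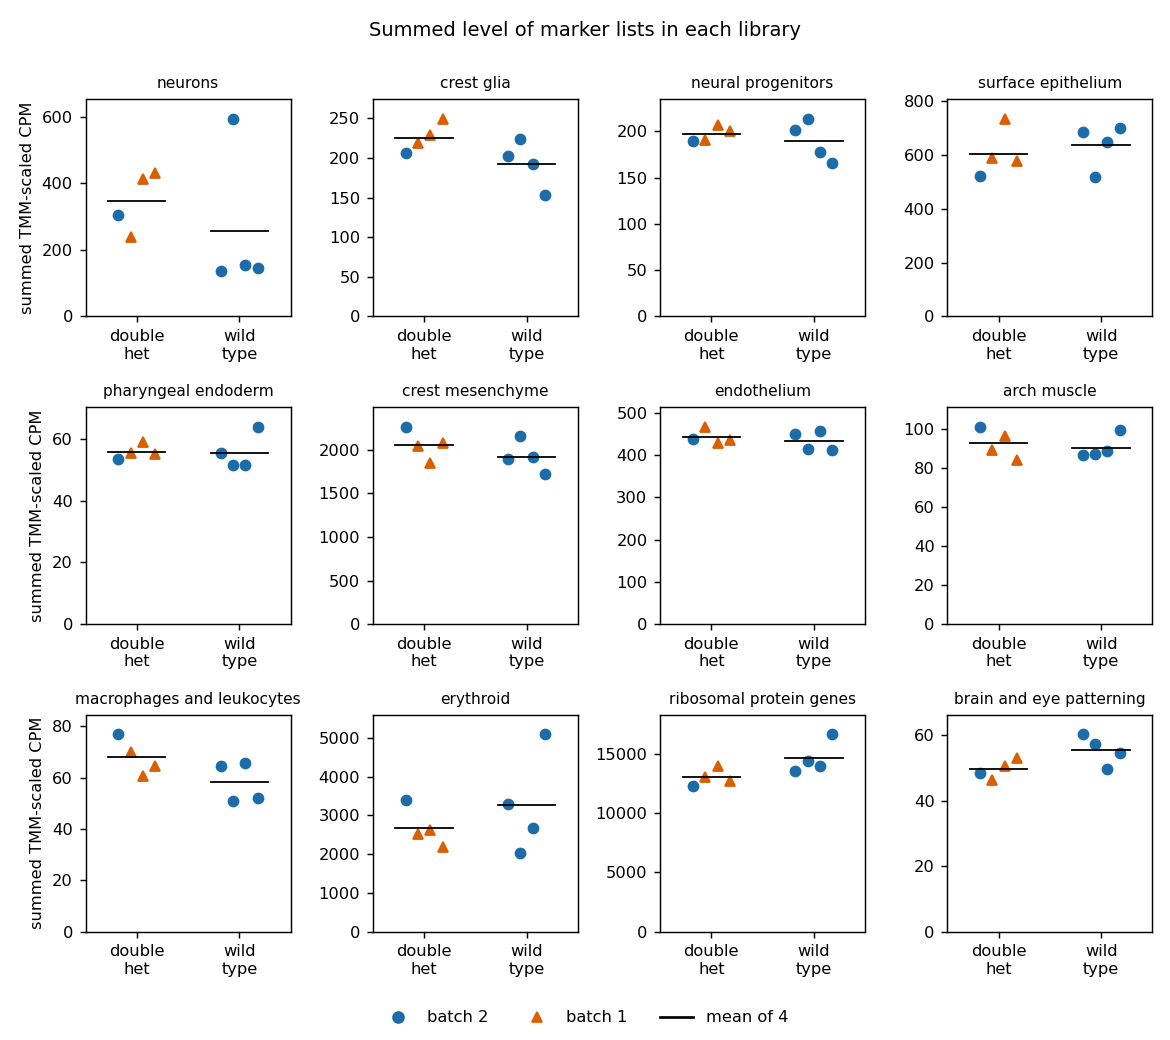
Summed TMM-scaled CPM of 12 marker lists in each double heterozygous library (left) and each wild type library (right) on linear axes from 0, with batch 2 libraries as circles, batch 1 libraries as triangles and the mean of 4 as a line. The neuron sum of wild type replicate 2, 594 CPM, stands above all other libraries shown, and the ribosomal sum of wild type replicate 4, 16635 CPM, is the highest of its panel. The groups overlap in every panel.

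The double heterozygous arches were set against each single heterozygous group in the same model. Against Kat6a heterozygous arches edgeR called 4 genes, 0.0276% of those tested, and against Dlx5 heterozygous arches 2 genes, 0.0138%. Dlx6os1 was called lower in both. It had 41.1, 32.7, 37.6 and 34.8 CPM in Kat6a heterozygous and 46.1, 40.7, 42.6 and 34.3 CPM in Dlx5 heterozygous libraries, so that the 22.02 to 24.6 CPM of the double heterozygous libraries lay below every library of both single heterozygous groups. The log2 differences were −0.57 (SE 0.10, edgeR adjusted p = 0.0412) from Kat6a heterozygous and −0.73 (SE 0.10, edgeR adjusted p = 0.00261) from Dlx5 heterozygous arches. The difference from Dlx5 heterozygous arches was kept in 23 of 24 fits with 1 library left out and lost without double heterozygous replicate 1 (adjusted p = 0.195). That from Kat6a heterozygous arches was kept in 14, and the adjusted p was highest without double heterozygous replicate 1 (1), Kat6a heterozygous replicate 4 (0.303) or replicate 1 (0.142). Against the same wild type libraries Dlx6os1 stood at −0.39 in Kat6a heterozygous and −0.23 in Dlx5 heterozygous arches, neither past the test. Its departure from the sum of the 2 single values was −0.35 (SE 0.13, edgeR adjusted p = 0.877).

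The other genes called against a single heterozygous group fall outside the rule for named genes, save Alkal2 and Mpo, and were picked after their values were seen. Alkal2 had 0.612, 1.19, 1.04 and 0.622 CPM in Kat6a heterozygous libraries, below the 1.78 to 3.74 CPM of the double heterozygous libraries, a difference of 1.82 (SE 0.30, edgeR adjusted p = 0.021). It was lost without double heterozygous replicate 1 or Kat6a heterozygous replicates 1 or 4. Jun, an AP-1 transcription factor, had 77.6, 65.6, 59.3 and 63.8 CPM in double heterozygous libraries, against 42.1, 44.9, 52.1 and 51.1 CPM in Kat6a heterozygous libraries, a difference of 0.52 (SE 0.09, edgeR adjusted p = 0.021), and it was lost without double heterozygous or Kat6a heterozygous replicate 1. Mex3d, an RNA-binding protein gene, had 86.8, 83.4, 86.1 and 85.3 CPM in double heterozygous libraries, against 62.9, 59.3, 68.7 and 66.9 CPM in Kat6a heterozygous libraries, a difference of 0.39 (SE 0.07, edgeR adjusted p = 0.0412) that was kept in 9 of 24 fits with 1 library left out. Wild type libraries lay between, at 74.9, 74.9, 74.5 and 78.1 CPM. Over wild type, Mex3d stood at 0.15 in double heterozygous (edgeR adjusted p = 0.414) and −0.24 in Kat6a heterozygous arches (0.194). Mpo was higher than in Dlx5 heterozygous libraries, which had 3.16, 2.67, 2.94 and 1.19 CPM, by 1.47 (SE 0.25, edgeR adjusted p = 0.0298), kept in 13 of 24 such fits. Without double heterozygous replicate 1 no gene passed against either group.

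All single heterozygous values share the wild type libraries with the double heterozygous ones, so the following are given side by side only. edgeR called no gene in Kat6a heterozygous arches (1648, or 11.4%, at an unadjusted p under 0.05, 80 by DESeq2) and none in Dlx5 heterozygous arches (1645, or 11.3%, at an unadjusted p under 0.05, 31 by DESeq2). The 43 higher genes had a median of 0.64 in double heterozygous arches, 0.27 in Kat6a heterozygous and 0.35 in Dlx5 heterozygous arches. For the 22 lower genes these medians were −0.44, −0.25 and −0.24. Both sets were chosen on their double heterozygous values, so larger medians there can come from that choice. Runx2 stood at 1.13, 0.96 and 1.00 and Creb5 at 1.39, 0.96 and 1.01 in double, Kat6a and Dlx5 heterozygous arches. Foxl1 stood at 1.47, 0.06 and 0.85, Foxf2 at 0.76, 0.01 and 0.35, and Alkal2 at 2.07, 0.25 and 0.92, with the Kat6a heterozygous value near 0 for the forkhead genes. Hopx stood at −1.39, −0.43 and −1.22, and Edn1 at −1.15, −0.41 and −1.03.

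**Figure D5:**
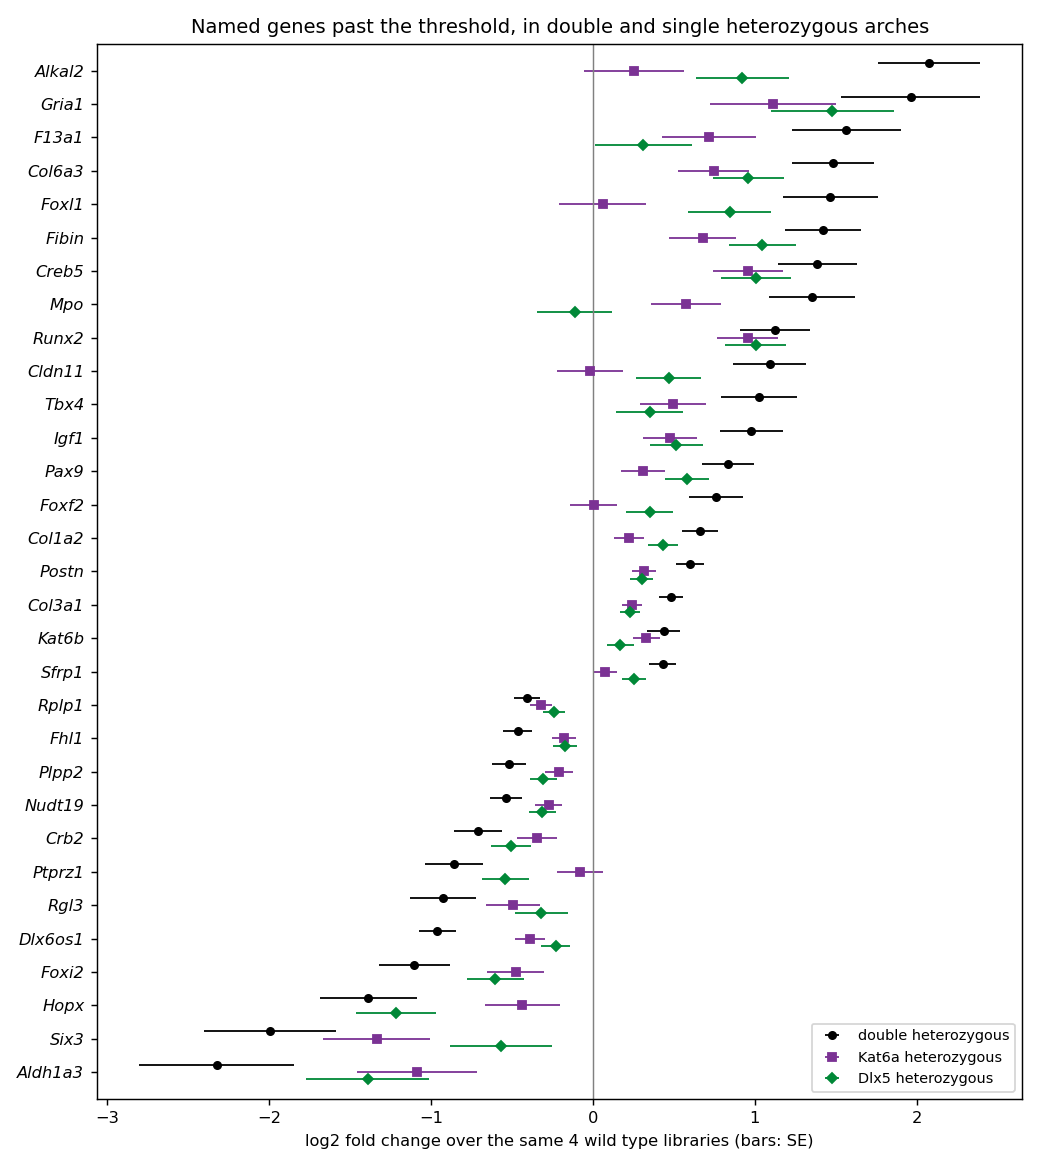
Log2 fold change over the same 4 wild type libraries in double heterozygous (black circles), Kat6a heterozygous (purple squares) and Dlx5 heterozygous arches (green diamonds) for the 31 named genes past the threshold in double heterozygous arches, with standard errors as bars. These genes were chosen on the black values. Runx2 has 3 values between 0.96 and 1.13, whereas Foxl1 has 1.47, 0.06 and 0.85.

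The test of non-additivity asked whether the double heterozygous difference departed from the sum of both single heterozygous differences on the log2 scale. edgeR called 1 gene (0.00689%), with 783 (5.4% of those tested) at an unadjusted p under 0.05, and DESeq2 called 1. This was Gm6402, a transcribed pseudogene at chr17:30394825-30396180, whose reads may belong to its parent gene. It had 17.1, 14.5, 20.4 and 14.7 CPM in double heterozygous libraries. The Kat6a heterozygous libraries had 10.9, 7.67, 11.5 and 10.03 CPM, the Dlx5 heterozygous libraries 11.9, 11.7, 9.75 and 8.78 CPM, and the wild type libraries 13.5, 12.8, 13.8 and 17.9 CPM. Both single heterozygous groups lay below every double heterozygous and every wild type library, and the departure was 1.24 (SE 0.20, edgeR adjusted p = 0.032), kept in 12 of 24 fits with 1 library left out and with its highest adjusted p, 0.283, without Dlx5 heterozygous replicate 4. On simulated counts of the comparison with wild type, 60 of 100 genes changed 1.5-fold and 83 of 100 changed 2-fold were recovered, with 6 false calls among 149, so real differences of these sizes can have been missed at this depth and spread. The changed genes had a mean of at least 1 CPM. Counts were drawn independently from the fitted model, without deviations shared by many genes of a library, so the 6 do not measure false calls in the real data. The test of non-additivity was not simulated.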

How the data were processed

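RNA from pharyngeal arches was made into stranded mRNA libraries, per the labels' protocols. Per the submitters' processing notes, base calling used CASAVA 1.8.2, reads were counted with featureCounts and the build was mm10. Aligner and strand setting: not given in the sources used here. The authors deposited raw counts per Entrez gene, not normalized. Of 27179 entries, 568 without an identifier (0.182% to 0.259% of a library's counts) were left out. Of 26611 identifiers, 25275 matched a RefSeq symbol of GRCm38.p6.

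Genes were filtered with filterByExpr by group, scaled by TMM and tested with edgeR 4.0.16 (R 4.3.3, robust quasi-likelihood) in a model of 6 group means and batch over 24 libraries (17 residual degrees of freedom, biological coefficient of variation 0.0896). Calls used a Benjamini-Hochberg adjusted p under 0.05 over 14506 genes. The SE was derived from the F statistic. CPM values are not corrected for batch, whereas fold changes are. Replicates are biological per the design text, and the chi-square per degree of freedom between replicate pairs was 2.99 to 23.8, so none was taken as a duplicate. Log2 CPM for scores used a prior count of 2.

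Members, gene lists and tests were chosen with earlier results of these data known. Named were Kat6a, Kat6b, the Dlx family, the 12 called genes with the largest rise and the 12 with the largest fall at a mean of at least 1 CPM (predicted genes and pseudogenes aside), up to 6 called members per list, the 2 of smallest p in a list without a call, and genes called non-additive. Some of those without a call appear only in the plots, and some genes are not reported here. Alternatives were DESeq2 1.42.0, RLE scaling, 2 other filters, a model lacking batch, batch 2 by itself, a model of the compared groups, a replicate block, a neuron covariate, removal of 4 neuron-rich libraries (added after seeing the data) and each library left out. The labels' replicate numbers did not pair double heterozygous with wild type libraries, although same-numbered libraries of other groups deviated together in part. In Kat6a heterozygous and wild type arches every same-numbered pair did (r 0.183 to 0.661). The procedure was tested on simulated data.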

Additional observations from a re-analysis of the deposited data

Results flagged for a closer look

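Single libraries stood far from the other 3 of their group in 10 of 156 groups of values examined, and chance flags about 1 in 20. In double heterozygous replicate 1, Cldn11 was at 10.04 CPM against 3.81 to 4.72 in the others, Dlx1as at 16.5 against 13 to 13.3, Myog at 1.73 against 0.745 to 0.869, and Slc4a1, the anion exchanger of red cells, at 89.2 against 60.3 to 62.5. In wild type replicate 2, the summed neuron markers were at 594 CPM against 135 to 154, Prph, a neuronal filament gene, at 1.47 against 0 to 0.0841, and Nudt19 at 30.2 against 27.2 to 27.3. In wild type replicate 4, Fgf8 was at 31.9 CPM against 21.4 to 22.7, and the summed arch muscle markers at 99.7 against 86.6 to 88.7. Wild type replicate 1 had 28.2 M counts against 11.5 to 12.4 M.

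The double heterozygous difference of Gm6402 departed from the sum of the single heterozygous differences by 1.24 (edgeR adjusted p = 0.032), a tested difference between groups. It is described with its values in the comparison with single heterozygous arches. None of these values was weighed for a cause.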

How the results depend on the processing

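The 65 calls against wild type (43 higher, 22 lower) became 185 with DESeq2 (92 and 93), 10 without the batch term (5 and 5), 9 in batch 2 alone (4 and 5), 10 with only the groups compared (5 and 5), 17 with the neuron covariate (14 and 3) and 138 without 4 neuron-rich libraries (114 and 24). RLE scaling and both other filters stayed within 1.5 times. Leaving out single libraries gave 1 to 169 calls, 0 to 81 higher and 1 to 88 lower. Against Kat6a heterozygous arches the 4 calls became 15 with DESeq2, 7 without a filter, 1 with the strict filter, 10 in batch 2 alone and 89 without neuron-rich libraries, and 0 to 7 in leave-one-out fits. Against Dlx5 heterozygous arches the 2 calls became 6 in batch 2 alone and 1 without the batch term, with only the groups compared or without neuron-rich libraries, and 0 to 2 in leave-one-out fits. The non-additive call became 6 in batch 2 alone, 0 with only the groups compared or without neuron-rich libraries, and 0 to 1 in leave-one-out fits.

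With the replicate block the calls were 46 against wild type (29 and 17), of which 29 are among the 65 while 36 of the 65 were lost, 8 against Kat6a heterozygous, 2 against Dlx5 heterozygous and 0 for the non-additive part, and Actc1 passed (2.13, adjusted p = 0.0263). Same-numbered double heterozygous and wild type libraries deviated with correlations of −0.0227, −0.281, −0.16 and −0.227, so the numbers are not taken as pairs in that comparison. Among wild type, Kat6a heterozygous, Dlx5 heterozygous and Kat6a homozygous libraries the same numbers did deviate together for replicate 2 (0.511 to 0.661 over 6 pairs of groups) and replicate 3 (0.102 to 0.387), less for replicate 1 (0.0949 to 0.278) and not throughout for replicate 4 (−0.451 to 0.303). The −0.451 lies between Kat6a and Dlx5 heterozygous replicate 4, the batch 1 libraries of their groups. Removal of the batch effect links their deviations, so this value cannot show whether they are paired. With the replicate block, a fit added after seeing the data for these 2 comparisons, edgeR also called 0 genes in Kat6a heterozygous arches (1619 at an unadjusted p under 0.05) and 0 in Dlx5 heterozygous arches (1914).

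The sign turned for Dlx1 (−0.0972 to 0.00894 in leave-one-out fits, batch 2 alone 0.0381, neuron covariate 0.0186, only the groups compared 0.0365, without wild type replicate 1 0.00894 and replicate 4 0.00447), Dlx6 (−0.0502 to 0.149 in leave-one-out fits, neuron covariate −0.0264, no batch term −0.0151, without double heterozygous replicate 1 −0.0502, without wild type replicate 1 −0.0029), Hoxb3 (0.13 without double heterozygous replicate 1, with −0.782 to 0.13 over the leave-one-out fits) and Slc4a1 (−0.0685 without the batch term), none of them past the threshold. The cause of these changes was not tested, and fits within batch 2 or without a library hold fewer samples.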
